A study of Mus musculus with 3 samples.

Results

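The base changes described here are the 120 single-base differences that a read of the Tyr target site can show over a window of 40 bases when its alignment has no gap. They were found by comparing each aligned allele with its reference base by base, keeping the 2087 of 2445 deposited allele lines without a gap in either sequence. A share is the number of reads that carry a change over all gap-free reads of the same mouse, in percent, so a read with several changes counts once for each of them. The lines came from tail genomic DNA of 3 male mice, read by PCR amplification of Tyr and Illumina sequencing.

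All 3 mice belong to 1 group. Per the labels, each came from a cross between a line with a Cas9 gene silenced by a loxP-flanked stop (LSL-Cas9) and a line with a tamoxifen-dependent Cre behind the broadly active CAG promoter (CAG-CreER), and the series design names a transgenic guide cassette against tyrosinase. Tamoxifen was given at 75 mg/kg through breast milk, and the dose that reached each animal was not measured. The labels do not say whether the mice share a litter, and tail tissue is a mixture of cell types. Samples without guide, Cas9 or tamoxifen were not analysed here, and every share below includes whatever background sequencing and PCR give at that base.

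Tyr encodes tyrosinase, the copper enzyme that starts melanin synthesis in pigment cells. Cas9 cuts both strands inside the guide match, close to a short protospacer adjacent motif (PAM), and cells rejoin the ends either precisely or with inserted or deleted bases. Base substitutions without a gap are not the usual product of that repair. In amplicon data they can also come from DNA damage, polymerase errors in PCR, base calling, other templates that the primers amplify, and inherited variants.

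In the RefSeq annotation of GRCm38.p6, Tyr (gene ID 22173) spans chromosome 7 bases 87424771 to 87493512. The window itself was not placed on the genome because no genome sequence was used here. Position 1 is the 5′ end of the window, and A19C means that the reference has A at position 19 and the read has C. The first line below has the guide match, positions 4 to 23, in capitals. The second has the PAM, positions 24 to 26, in capitals, and Cas9 is expected to cut between positions 20 and 21. The other lines are read sequences with each changed base in capitals, shown because the results turn on them: the 3 leading changes, the change at the base of the classic albino allele, and reads with several changes that are described below.
window with guide: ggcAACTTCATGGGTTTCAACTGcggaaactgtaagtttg
window with PAM: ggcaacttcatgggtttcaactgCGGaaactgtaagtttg
A19C: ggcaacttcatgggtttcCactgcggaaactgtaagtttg
T15C: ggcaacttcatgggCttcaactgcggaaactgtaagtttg
T16C: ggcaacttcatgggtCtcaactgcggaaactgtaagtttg
G32C: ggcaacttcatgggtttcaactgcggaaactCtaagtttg
A19C with T33A: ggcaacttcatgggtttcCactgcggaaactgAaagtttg
A19T with G32C: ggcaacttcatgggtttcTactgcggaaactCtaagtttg
C21A with C30A: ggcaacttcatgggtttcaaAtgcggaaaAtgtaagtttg
C21A with C30A and T37G: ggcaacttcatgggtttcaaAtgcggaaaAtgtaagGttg
A20C with A29C: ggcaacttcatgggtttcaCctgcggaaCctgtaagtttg

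Gap-free reads numbered 117667 in mouse 1, 172515 in mouse 2 and 119349 in mouse 3, which is 99.2%, 99.9% and 99.8% of all reads. At this depth 1 read is worth 0.000850%, 0.000580% and 0.000838% of gap-free reads. A change with no read has a limit of 3 reads, which is 0.00255%, 0.00174% and 0.00251%. No molecular identifiers are described, so reads are not independent molecules, and all intervals, limits and read-count tests below cover counting error only. Of the 645, 804 and 638 gap-free lines of the 3 mice, 397, 508 and 380 held a single read, and these lines held 0.337%, 0.294% and 0.318% of gap-free reads.

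At least 1 base change was present in 12.5%, 12.3% and 12.6% of gap-free reads, a mean of 12.5% ± 0.149 (SD, n = 3). Nearly all of these reads had exactly 1 change, 11.5% ± 0.120 of gap-free reads, against 0.832% ± 0.0278 with 2 changes and 0.0477% ± 0.00935 with 5 or more. Summed over the window there were 0.140 ± 0.00172 changes per gap-free read, or 0.350% ± 0.00430 per base. The deposited number of mutated bases counted changes at positions 20 and 21 alone in all 2087 gap-free lines. As a result 517, 637 and 510 lines with a base change elsewhere were deposited as unedited.

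Of the 120 possible changes, 119 were read in at least 1 mouse, 115 in all 3, and 96 with at least 10 reads in each. Mean shares were over 0.1% for 36 changes, between 0.01% and 0.1% for 61 and under 0.01% for 23, with a median of 0.0391%. A19C, an A to C change 1 base from the base beside the cut, stood far above this range with 6270, 8976 and 6499 reads, or 5.33%, 5.20% and 5.45%. It was 14.6 times the next change and 136 times the median change, and it made up 37.8%, 37.7% and 38.7% of all base changes in the 3 mice. Its coefficient of variation over the mice was 2.28%, against a median of 10.0% for the changes with at least 10 reads in each mouse. Counting error makes this coefficient larger for changes with fewer reads, so the contrast does not show A19C to be steadier than they are.

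The other A to C changes were far rarer than A19C. The second A to C change was A29C at 0.181% ± 0.0116 (SD, n = 3), in the short stretch of A bases behind the PAM, so A19C exceeded it 29.4-fold. The other A to C changes ran from A29C down to A27C at 0.0234%, and A19C was 63.8 times their median. Without A19C, A to C changes had a mean of 0.0971% ± 0.000774 per A base, against 0.620% ± 0.0124 with it. At the same base A19G was at 0.200% ± 0.0159, near the leading A to G changes. A19T, at 0.144% ± 0.0224, was also high for its type: it made up 40.3% of all A to T changes and was 3.44 times the next one.

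The letters around position 19 occur again in the window, which allows the same change to be read in the same surroundings. The stretch caact covers positions 3 to 7 and again positions 18 to 22, so A4 and A19 share both neighbours. A4C had 181, 276 and 182 reads, a share of 0.155% ± 0.00400, and A19C was 34.6, 32.5 and 35.7 times as frequent in the 3 mice. The other changes at these bases also favoured position 19, by less: A19T was 12.9, 7.14 and 7.12 times as frequent as A4T, and A19G 1.24 ± 0.129 times as frequent as A4G. Over the 9 changes of this repeat that had at least 10 reads at both places in each mouse, the median ratio was 1.24, and A19C had the highest. C21A, beside the cut, is not among them because its partner C6A had only 8, 7 and 2 reads. C21A was 34.9, 62.0 and 168 times as frequent as C6A, no lower than A19C over A4C in any mouse.

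The stretch aactg covers positions 19 to 23, around the cut, and positions 28 to 32, beyond the PAM. A28C, the partner of A19C there, was at 0.0942%, or 0.0177 ± 0.00111 of the A19C share, and A28T was 0.140 ± 0.0411 of A19T. Several partners were near each other: C30A was 0.784 ± 0.0164 of C21A, A29C was 1.17 ± 0.140 of A20C, and T31C was 1.03 ± 0.0577 of T22C. Apart from position 19, the widest gaps in this repeat were at its last base. G32C was 13.6 ± 2.24 times as frequent as G23C, which had 14, 18 and 10 reads. In the other direction G32T, with only 4, 13 and 6 reads, was 0.0302 ± 0.0141 of G23T.

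After A19C the spectrum was led by T to C changes. T15C was in 449, 572 and 458 reads, or 0.382%, 0.332% and 0.384%, and T16C was in 340, 520 and 346 reads, or 0.289%, 0.301% and 0.290%. T7C, T31C, T22C and T8C followed at means of 0.243%, 0.229%, 0.224% and 0.222%. The A to G changes A10G and A5G were at 0.208% ± 0.0258 and 0.204% ± 0.0209. These 8 transitions, which exchange a purine for a purine or a pyrimidine for a pyrimidine, came from guide positions except T31C.

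The remaining leading changes were transversions, which exchange a purine for a pyrimidine or the reverse. C21A, at the base on the PAM side of the cut, had 279, 434 and 336 reads, or 0.237%, 0.252% and 0.282%. C30A, at the same place in the second aactg, had 0.201% ± 0.0195, and T37G had 0.253% ± 0.0207. The order among these ranks was not fixed: mouse 1 had more T7C than C21A, and mice 2 and 3 had more C21A. The 12 leading changes together made up 57.4% ± 0.407 of all changes, and 9 of them lay in the guide match and 3 outside it.

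By type of change, per base that can undergo it, T to C was at 0.188% ± 0.00427 and A to G at 0.177% ± 0.00488 (SD, n = 3). These types read the same change on opposite strands, and their difference of -0.0101 percentage points ± 0.00539 had the same sign in all 3 mice. C to A was at 0.0775% ± 0.00394, T to G at 0.0629% ± 0.00532 and G to T at 0.0559% ± 0.00185. C to T was at 0.0496%, T to A at 0.0448%, A to T at 0.0358% and G to A at 0.0347%. G to C at 0.0177% and C to G at 0.00396% were the rarest types.

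The share of a type that its leading change made up varied widely, from 85.9% for A19C and 70.3% for G32C down to 11.7% for A10G. G23T, at the last guide base, led G to T with 0.180% ± 0.0128, and T33A led T to A with 0.139% ± 0.0191. G32A led G to A with 0.0641% ± 0.0115, and C24T led C to T with 0.0895% ± 0.0226. C to G was nearly absent: C24G led with 26, 27 and 13 reads, C21G had 2, 0 and 2 reads, C30G had 0, 2 and 0 reads, and C9G had none in any mouse. For C9G the limits are the 3-read values given above.

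G32C stood out within a rare type. It had 173, 221 and 162 reads, or 0.147%, 0.128% and 0.136%, a mean of 0.137% ± 0.00952 (SD, n = 3), which ranked 27 among the 120 changes. The second G to C change, G25C, was at 0.0130%, so G32C was 10.5 times as frequent, and it was 39.5 times the median of the other G to C changes. As background, a G to C change at this base is that of the classic albino allele of Tyr, carried by many laboratory strains. The reading frame was not checked on a genome here, and whether any albino template was in these samples was not tested.

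Complementary types were compared because a change that is made on either strand alike, at like bases, would give equal rates. A to C exceeded T to G by 0.557 percentage points ± 0.0112, higher in 3 of 3 mice, but by 0.0341 ± 0.00455 with position 19 left out. C to A exceeded G to T by 0.0216 ± 0.00558, and C to T exceeded G to A by 0.0148 ± 0.00536, each in 3 of 3 mice. C to G was below G to C by a difference of -0.0138 ± 0.00103, and A to T below T to A by -0.00897 ± 0.00360, each in 3 of 3 mice. In the exact two-sided sign-flip permutation test each of these 6 comparisons had p = 0.25, the smallest that 3 mice allow, and 0.271 after Benjamini-Hochberg adjustment over 13 such tests, so none could pass 0.05.

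Transitions and transversions had nearly the same rate per possible change, 0.119% ± 0.00233 and 0.115% ± 0.00204, and the sign of the difference was not the same in all mice (higher in 2 of 3, exact sign-flip permutation p = 0.5, adjusted p = 0.5). A19C set this balance. With position 19 left out, transitions were 0.0686 percentage points ± 0.00294 above transversions, and without A19C they made up 54.9% ± 0.606 of all changes, against 34.0% ± 0.643 with it. By reference base, A bases were changed in 0.833% ± 0.00987 of reads per base, or 0.301% without A19C. T bases were at 0.295% ± 0.000769, C bases at 0.131% ± 0.00934 and G bases at 0.108% ± 0.00424.

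A read base that equals the reference base on its 5′ side, as C at position 19 does, was found at 0.322% ± 0.00539 per possible change over 24 changes. A read base equal to neither neighbour was found at 0.0667% ± 0.000951 over 67 changes. The difference of 0.255 percentage points ± 0.00522 was positive in 3 of 3 mice (exact sign-flip permutation p = 0.25, adjusted p = 0.271), and it was 0.0410 ± 0.00170 with position 19 left out. Among transversions without A19C, the rate was 0.0896% ± 0.00333 for a match to the 5′ neighbour and 0.0327% ± 0.000766 for a match to neither. Among transitions the same rates were nearer to each other, 0.138% ± 0.00476 and 0.128% ± 0.00205.

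A match to the 3′ neighbour was found at 0.0642% ± 0.00220 over 25 changes. Its difference from a match to neither was -0.00251 ± 0.00142, below 0 in 3 of 3 mice (exact sign-flip permutation p = 0.25, adjusted p = 0.271), but 0.000746 with position 19 left out. It ran in opposite directions by kind of change: for transversions a 3′ match was at 0.0525% ± 0.00242, above the rate of neither in every mouse, and for transitions at 0.0942% ± 0.00267, below it in every mouse. The window holds 28 different triplets of a base with both neighbours. Apart from CAA, which includes position 19, the triplet with the highest rate per base was GTT at positions 15 and 37, with 0.492% ± 0.0182. The lowest was GCA at position 3, with 0.0648%, and every triplet centred on A had a rate over 0.2%.

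In the guide match the rate was 0.500% ± 0.00939 per base, against 0.217% ± 0.00242 at the 17 window positions outside guide and PAM (SD, n = 3). The difference of 0.283 percentage points ± 0.0118 was positive in 3 of 3 mice (exact sign-flip permutation p = 0.25, adjusted p = 0.271). Nearly all of it came from position 19, without which it was 0.0111 ± 0.00727. The PAM had 0.102% ± 0.00857 per base, and its difference from outside positions was -0.114 ± 0.0110, below 0 in 3 of 3 mice with the same p-values. All 3 PAM bases are C or G, the reference bases with the lower mean rates in the window.

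At the G bases of the PAM, G25T had 0.0588% ± 0.00170, G25A 0.0368% and G25C 0.0130%, while G26T had 0.0437%, G26A 0.0269% and G26C 0.00621%. Beside the cut, position 20 had A20C at 0.155%, A20G at 0.154% and A20T at 0.0251%. Position 21 had C21A at 0.257%, C21T at 0.0372% and C21G at 0.00113%. Position 19 apart, the highest position rates were at positions 15 with 0.501% ± 0.0443, 37 with 0.483% ± 0.0398 and 29 with 0.378% ± 0.0212. The total at position 19 was 5.67% ± 0.125, or 0.345% without A19C. At position 4 the total was 0.334% ± 0.00818, with A4C at 0.155% included. With A to C set aside at both positions, A19G and A19T were at 0.200% and 0.144%, and A4G and A4T at 0.162% and 0.0168%.

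The 3 mice gave similar shares for most changes. The chi-square test of read counts over the 3 mice could be made for 108 changes, and after Benjamini-Hochberg adjustment at 0.05 it called 1, which is 0.926% of those tested. That change was C24T, with 113, 111 and 129 reads, or 0.0960%, 0.0643% and 0.108%. Before adjustment 17 of the 108 changes were under 0.05, a larger part than the 0.05 that counting error alone would give. A19C was among them and did not pass after adjustment. Leaving out mouse 2 or mouse 3 left no change past the threshold.

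The median ratio of the highest to the lowest mouse was 1.22 over the changes with at least 10 reads in each mouse. The largest such ratios were 2.40 for C9A with 18, 11 and 10 reads, 2.15 for G2A with 44, 30 and 31 reads, and 2.03 for A28T with 34, 31 and 17 reads. C24G at 2.03 and G13T at 1.94 were the next. Mouse 1 was the highest in all 5, and all had small counts. Across the changes read in both mice of a pair, log10 shares had a Pearson correlation of 0.975 in mice 1 and 2 over 117 changes. It was 0.968 in mice 1 and 3 over 116 changes, and 0.981 in mice 2 and 3 over 115. The points share the window, the PCR and the base types, and without A19C these values were 0.972, 0.964 and 0.978.

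Reads with 2 or more changes were compared with the number expected if each position of a mouse changed independently at its own rate. There were 1190, 1681 and 1233 such reads, or 1.32, 1.33 and 1.36 times the expected number. The log2 ratio of 0.419 ± 0.0240 (SD, n = 3) was above 0 in 3 of 3 mice (exact sign-flip permutation p = 0.25, adjusted p = 0.271). With position 19 left out it was 0.929 ± 0.0539. In reads with exactly 2 changes, 272 had them at adjacent positions against 150 expected, a ratio of 1.82 ± 0.198. That ratio was 1.06 ± 0.241 where 1 of the changes was at position 19 and 2.88 ± 0.232 where none was. Without position 19, changes more than 5 bases apart were also above the expected number, at 1.46 ± 0.0675.

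The pairs were concentrated in a few combinations. Of 7020 possible pairs of changes at different positions, 1573 were read, 274 of them in all 3 mice and 113 with at least 10 reads in each. The most frequent pair was C21A with C30A, the equivalent bases of the 2 aactg stretches, with 79, 105 and 84 reads against 0.524, 0.835 and 0.752 expected, a ratio of 129 ± 19.8. A20C with A29C, again equivalent bases, had 70, 90 and 53 reads, at a ratio of 185 ± 13.8. None of the 10 most frequent pairs contained A19C, although A19C was the most frequent change.

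C21A, C30A and T37G were paired in every combination. C21A with T37G had 48, 85 and 69 reads at a ratio of 75.4 ± 1.73, and C30A with T37G had 35, 67 and 56 reads at 74.7 ± 5.13. The line with all 3 changes and no other had 16, 23 and 24 reads. Such reads differ from the window at 3 separate places and recurred in every mouse.

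The other leading pairs joined G to T changes. G23T with G36T had 45, 52 and 37 reads at a ratio of 331 ± 3.43, and G25T with G36T had 44, 57 and 30 reads at 967 ± 78.9. G25T with G40T, G23T with G25T and G36T with G40T had ratios of 625 ± 92.6, 282 ± 24.0 and 636 ± 19.6. G26T with A29C, which joins a G to T with an A to C change, had 39, 44 and 32 reads at 360 ± 39.9. Reads with many changes contribute to these counts, since 1 read with 5 changes holds 10 pairs.

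The leading pairs fell into 2 families of transversions, a grouping that was made after the values were seen and is given without a test. The first holds C to A and T to G changes, the second A to C and G to T changes, each type being the complement of a type in the other family. In reads with exactly 2 changes and none at position 19, both changes were C to A or T to G in 568 reads against 26.2 expected, a ratio of 21.6 ± 0.622. Both were A to C or G to T in 247 reads against 36.6 expected, a ratio of 6.70 ± 0.361. A mixture of the families was seen in 50 reads against 69.0 expected, a ratio of 0.705 ± 0.154. A low ratio was not particular to this mixture. With transitions the first family was at 0.614 ± 0.0504 and the second at 0.642 ± 0.143. With the other transversions (A to T, T to A, G to C and C to G) they were at 0.226 ± 0.132 and 0.639 ± 0.0679. Those other transversions were also above the expected number with each other, in 46 reads against 15.7, a ratio of 2.90 ± 0.291. Transitions, in contrast, met each other at the expected rate, in 368 reads against 355 expected, a ratio of 1.03 ± 0.107. Over all reads, where those with many changes hold most pairs, the order was different. A to C or G to T pairs then had a ratio of 155 ± 29.7, C to A or T to G pairs 57.5 ± 11.7, and mixed pairs 14.8 ± 2.01, above the expected number.

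The make-up of the changes shifted with the number of changes on a read. Leaving out position 19, transitions were 63.6% ± 1.06 of the changes on reads with 1 change, 41.3% ± 2.43 on reads with 2, 13.8% ± 0.504 on reads with 3 or 4 and 2.01% ± 0.895 on reads with 5 or more. C to A and T to G changes went from 11.0% ± 0.859 to 27.3% ± 2.80, 53.6% ± 2.47 and 13.8% ± 4.78 over the same classes. A to C and G to T changes went from 13.6% ± 0.629 to 15.5% ± 1.09, 24.8% ± 3.76 and 82.5% ± 3.35. Reads with 5 or more changes were few, 68, 79 and 47 in the 3 mice with up to 15, 17 and 14 changes. They held 3.59%, 3.10% and 2.40% of all changes, and 60.1%, 61.9% and 62.4% of their changes lay at positions 21 to 40. The part of all changes at these positions was not set beside this, so it does not show a skew along the window.

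Single changes differed accordingly in how often they came alone. Another change was present on 86.8% ± 4.56 of the reads with G36T, on 83.8% ± 4.04 with G26T, on 61.8% ± 2.99 with C30A and on 52.0% ± 0.715 with C21A. Medians were taken over the changes with at least 10 reads in each mouse. They were 64.6% for 10 G to T changes, 52.0% for 5 C to A changes and 44.5% for 7 T to G changes. The 10 A to C changes had a lower median of 22.0%, from 7.16% to 49.6%, and T15G was at 8.39%. The median was 17.8% for 24 other transversions and 12.7% for 40 transitions. T15C was at 10.6% ± 1.32 and A19C at 7.16% ± 0.364. For A19C this was near the reads with A at position 19, of which 7.24% ± 0.0430 had a change elsewhere.

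Shares were also taken over reads with no change or a single one, leaving out every read with more than 1 change. This lowered some shares much more than others. A19C was then at 4.99%, against 5.33% ± 0.121 over all gap-free reads, and T15C at 0.330%, against 0.366% ± 0.0295. C21A fell to 0.124%, C30A to 0.0777%, T37G to 0.142%, A20C to 0.0788%, G25T to 0.0143% and G26T to 0.00706%. G32C fell to 0.0756%.

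A19C was frequent enough that its partners could be compared with a sizeable expectation, and all 39 pairs expected in at least 5 reads in every mouse included it. Of these pairs 9 were above the expected number in every mouse, 20 were below it in every mouse, and the median ratio was 0.789. By family, A19C with a transition was near the expected number, in 967 pairs against 989, a ratio of 0.978 ± 0.0167. With A to C or G to T changes it was rarer, at 0.285 ± 0.0417, and with C to A or T to G changes at 0.372 ± 0.0781. With the other transversions, A to T, T to A, G to C and C to G, it was more frequent, at 2.30 ± 0.125. These families were also formed after the values were seen, and no test was made.

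The lowest ratios were those of A19C with C30A, which had 0, 1 and 0 reads against 11.8, 17.3 and 14.5 expected, with C21A, which had 0, 2 and 2 reads against 14.9, 22.6 and 18.3, and with A4C, which had 0, 4 and 0 reads against 9.64, 14.4 and 9.91. C21A and C30A were thus common together and rarely on a read with C at position 19. The highest ratios were those with T33A, which had 39, 41 and 30 reads against 10.1, 11.9 and 8.06 expected, a ratio of 3.68 ± 0.219, and with G32C, which had 38, 41 and 27 reads against 9.22, 11.5 and 8.82, a ratio of 3.58 ± 0.531. T17A, T37A and T39C followed at 3.05 ± 0.797, 2.70 ± 0.813 and 1.96 ± 0.438. These partners lie on both sides of position 19, between 2 and 20 bases away.

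Most reads with G32C had the reference A at position 19, on 61.8%, 68.8% and 66.7% of them in the 3 mice. C was there on 22.0%, 18.6% and 16.7% of them and T on 16.2%, 12.2% and 16.7%. In reads with the reference G at position 32, C was at position 19 on 5.31% ± 0.119 and T on 0.124% ± 0.0182. T33A, at the next base, also came with C at position 19, on 19.6% ± 1.48 of its reads, but with T on 1.39% ± 0.346.

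Read from position 19, G32C was on 0.0952% ± 0.00172 of the reads with A there and on 0.493% ± 0.100 of those with C. It was on 14.5%, 13.0% and 15.2% of the reads with T, that is on 28 of 193, 27 of 207 and 27 of 178 reads. The exact Clopper-Pearson 95% intervals of these 3 shares reached from 8.77% to 21.3% and did not overlap those of the reads with C, which reached from 0.274% to 0.831%. The line with A19T and G32C and no other change had 25, 20 and 22 reads. All reads with both A19T and G32C, 28, 27 and 27, were 104 ± 6.82 times the expected number.

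Most lines with a single change were found in all mice and most lines with several changes were not. Recurrence depends on read depth, since a line with 1 read in total cannot be in more than 1 mouse. Lines with a single read were 61.6%, 63.2% and 59.6% of the gap-free lines of the 3 mice. Whether recurrence differed beyond depth was not tested. Of 119 distinct lines with 1 change, 115 were in all 3 mice. Of 885 distinct lines with 2 changes, 108 were in all 3, 147 in 2 and 630 in 1. Of 152 distinct lines with 5 or more changes, 6 were in all 3 and 141 in 1.

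Reads with an insertion or deletion at the cut gave a separate reading of A19C, which the gap-free shares do not use. Where such reads kept position 19, A19C was on 1 of 414 reads in mouse 1, 2 of 44 in mouse 2 and 3 of 117 in mouse 3, or 0.242%, 4.55% and 2.56%. The exact 95% intervals were 0.00612% to 1.34%, 0.555% to 15.5% and 0.532% to 7.31%. The share was below that of gap-free reads in 3 of 3 mice, by a mean of -2.88 percentage points ± 2.21 (exact sign-flip permutation p = 0.25, adjusted p = 0.271). By Fisher's exact test of reads, adjusted over 39 tests, mouse 1 differed (adjusted p = 2.97e-07), while mice 2 and 3 had adjusted p-values of 1 and 0.706.

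Some of these reads can be aligned in more than 1 way. When an inserted A lies at the cut, the same read with C at position 19 has the letters of the reference with a C inserted after position 18. A read of this kind could therefore be aligned without a base change. Among windows that start at position 1, that sequence had 0 reads in every mouse. Windows that start later, as they can with an insertion before the cut, were not searched for it, so its absence is not shown. Another such case is a deletion of positions 20 and 21, whose A19C version equals a deletion of positions 19 and 20; that sequence had 0, 5 and 0 reads. Lines of which the A19C version equals a plain insertion or deletion held 319, 20 and 88 reads with no A19C, against 22.8 expected in all.

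Without those lines, a selection made after seeing the data, the mice went in opposite directions. Mouse 1 still had A19C on 1 of 95 reads, or 1.05%, against 5.06 reads expected, while mouse 2 had it on 2 of 24 and mouse 3 on 3 of 29, or 8.33% and 10.3%. The mean difference from gap-free reads was then 1.25 percentage points ± 4.87. In Fisher's exact test of reads the unadjusted p-values were 0.0649, 0.357 and 0.208. With so few reads, neither direction was detectable.

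The other leading changes were too rare to compare in these reads. T15C was on 7 of 960 reads that kept its position, against 3.64 expected, and T16C on 7 of 958, against 2.78. C21A was on 1 of 469, against 1.16, T37G on 1 of 1076, against 2.56, and G32C on 0 of 1002, against 1.44.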

How the data were processed

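Each deposited table lists aligned alleles of 1 mouse with the reference they were aligned to, the read count of each allele, not normalized, and the percent that this makes of all reads. Counts and percents are used as the authors deposited them. Cutadapt (no version) and mm10 are named in the submitters' processing notes. For aligner, allele caller and quality filters, the tools are not given in the sources used here. Replicates were numbered in accession order and carry no pairing.

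The changes, groupings and comparisons were chosen with earlier results of these data known. Changes named in the text were the 12 with the highest mean share, the leading change of each of 12 types, the 3 lowest, the 5 with the largest ratio between mice and at least 10 reads in each, those at positions 20, 21, 25 and 26, G32C, the 10 most frequent pairs, and, of pairs expected in at least 5 reads in each mouse, the 5 highest and 3 lowest ratios. Others (such as A4C, A19G, A28C, A29C, G23C, G32T, G36T and the repeat partners) were chosen after their values were seen. An expected pair count is the product of both shares and the gap-free reads.

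Shares were averaged over the mice with SD, and within-mouse differences were tested by exact two-sided sign-flip permutation. Chi-square and Fisher's exact tests used SciPy 1.17.1, with numpy 2.4.6, pandas 2.3.3 and Python 3.11.15, and intervals were exact (Clopper-Pearson, 95%). The code was tested on simulated data. Alternatives changed the denominator, the lines kept, line weighting, window edges, position 19, pooling and the mice included.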

Additional observations from a re-analysis of the deposited data

How the results depend on the processing

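The 13 comparisons kept their direction with all reads as denominator, with lines of at least 2 reads, without lines of more than 3 changes, with reads pooled, and without each mouse in turn. Counting each distinct line a single time, which gives a line with 1 read the weight of the reference, reversed 5: guide minus outside was -0.150, transitions minus transversions -0.493, A to T minus T to A 0.00423, C to A minus G to T -1.96, and 3′ neighbour minus neither 0.781. Transitions minus transversions was -0.00109 without the first and last 3 positions, and 3′ neighbour minus neither 0.000746 without position 19. The log2 ratio of reads with 2 or more changes was -0.507 with lines of at least 10 reads, since most such lines hold fewer. The A19C difference in indel reads was 1.25 without the lines open to another placement, an alternative chosen after seeing the data.

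The count of changes differing between mice, 1 of 108, was 13 of 97 with lines of at least 10 reads, which keeps different lines at different depths, 0 with each distinct line counted a single time, 0 at an adjusted p under 0.01, and from 0 to 1 without 1 mouse (0 without mouse 2 or mouse 3). Of 36 named shares, 21 moved by more than 1 SD with exactly 1 change per read and 16 with lines of at least 10 reads. The ratio of reads with 2 or more changes was not run for lines with exactly 1 change, which has none by construction. No paired analysis was possible because there is 1 group. Sign-flip tests over 3 mice cannot reach 0.05, and shares near 1 read have no order.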
